A study of Homo sapiens with 2 samples.

Results

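The clustered histone genes are grouped here as the replication-dependent genes for the linker histone H1 and the core histones H2A, H2B, H3 and H4. They were taken as every protein-coding gene with the symbol H1-1 to H1-6, or with a symbol of H2AC, H2BC, H3C or H4C followed by a number. The rule found 69 genes among the 19938 protein-coding genes of the expression table, of which 6 code for H1, 17 for H2A, 18 for H2B, 13 for H3 and 15 for H4. RNA was sequenced from U87, an established human glioblastoma cell line labelled wild type, which was grown in RPMI medium with fetal bovine serum and kept for 72 h in the presence of the curcumin analog CCA-1.1 or of DMSO, the vehicle. The labels do not give the dose of CCA-1.1, and there was 1 library per condition. No difference below therefore has a replicate check, no test was made, and each difference compares 2 libraries and not the conditions. Values are TPM, a transcript-level abundance estimated by the authors with Kallisto for each RefSeq transcript and summed here per gene. TPM divides reads by transcript length and by the library total, which puts genes on a common scale. The read depth behind a value and how fully each gene's RNA was captured are unknown. Differences are log2((CCA-1.1 TPM + 1) / (DMSO TPM + 1)). On this scale, genes at low TPM show less than their full change.

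The core histones form the spool of the nucleosome around which DNA is wound, and H1 binds the DNA that enters and leaves it. The clustered genes are read mainly in S phase, when new DNA has to be packed. Most of their mRNAs carry no poly(A) tail and end instead just behind a short stem-loop, which the stem-loop binding protein SLBP holds during processing, translation and decay. Histone variants outside the clusters are made throughout the cell cycle from ordinary polyadenylated mRNAs. In bulk RNA, a smaller share of cells in S phase and less histone mRNA per S-phase cell cannot be told apart.

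The stem-loop is the sequence that the members share beyond their symbols, and it is shown because it marks the normal end of their mRNAs. A search of GENCODE transcripts, looked up by symbol for 66 of the 69 members, found the element of 16 bases in all 66. It had 10 forms, of which the 4 most frequent are given 5′ to 3′ as DNA, with the 4 bases of the loop in capitals:
Form of 39 genes, all families but H4: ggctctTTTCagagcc
Form of 9 genes, all H4: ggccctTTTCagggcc
Form of 8 genes, all families but H4: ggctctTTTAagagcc
Form of 4 genes, all H4: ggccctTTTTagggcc
The H4 genes thus shared no frequent form with the other families. The 6 remaining forms belonged to 1 gene each, H2AC11, H2AC15, H2AC20, H2BC10, H3C6 and H4C13. The differences of these genes went in both directions, and H4C13 was listed at 0 in both libraries. H3C6, one of the members with the largest differences, carried a form of its own:
H3C6: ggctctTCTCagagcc

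The start regions of 3 members are shown because they include a member of high level that was lower with CCA-1.1 and members past 1.5-fold that were higher. Each window runs from 250 bases before to 50 bases after the gene start, in RefSeq coordinates of GRCh38.p14, and capitals mark matches to the motifs named in the next paragraph. H1-2, at chr6:26056421-26056720 on the minus strand, was one of the 2 members with the highest levels and lower with CCA-1.1. H1-3, at chr6:26234938-26235237 on the minus strand, was higher there. H2BC26, at chr1:228457853-228458152 on the plus strand, was also higher, and its window holds the start of the neighbouring gene H2AC25 on the other strand.
H1-2: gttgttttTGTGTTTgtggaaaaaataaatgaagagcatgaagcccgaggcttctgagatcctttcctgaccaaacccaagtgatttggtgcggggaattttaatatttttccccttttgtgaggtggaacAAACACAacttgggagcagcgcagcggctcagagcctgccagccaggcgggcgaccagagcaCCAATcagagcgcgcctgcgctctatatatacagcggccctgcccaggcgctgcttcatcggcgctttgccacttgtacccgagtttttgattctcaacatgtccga
H1-3: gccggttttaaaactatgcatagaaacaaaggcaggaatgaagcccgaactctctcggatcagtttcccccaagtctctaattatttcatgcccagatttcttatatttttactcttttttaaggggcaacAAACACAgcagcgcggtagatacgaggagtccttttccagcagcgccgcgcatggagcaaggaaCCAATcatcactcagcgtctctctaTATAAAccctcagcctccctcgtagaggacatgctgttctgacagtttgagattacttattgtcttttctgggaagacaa
H2BC26: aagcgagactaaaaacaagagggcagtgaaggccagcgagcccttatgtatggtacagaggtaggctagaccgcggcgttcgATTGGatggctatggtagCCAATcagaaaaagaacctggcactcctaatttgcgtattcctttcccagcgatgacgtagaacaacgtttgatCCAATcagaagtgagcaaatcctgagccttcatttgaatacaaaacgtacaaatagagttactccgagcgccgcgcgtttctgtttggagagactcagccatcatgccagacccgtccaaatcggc

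A start window was found for 64 of the 69 members and was searched on both strands for 4 motifs. The core of the TATA box, TATAAA, was in 42 windows of members (65.6%), against 12% of all 27305 windows of the RefSeq table. The core of the NF-Y box, CCAAT, was in 54 (84.4%, against 35.7% of all windows). It was in every window of H1, H2A, H2B and H3 genes that was searched, and in 3 of 13 windows of H4 genes. The octamer known from H2B promoters, ATTTGCAT, was in 26 windows (40.6%, against 1.8%), with 14 of 18 H2B windows, 11 of 16 H2A windows, 1 H3 window and no H1 or H4 window. H2A and H2B genes that lie head to head share most of their windows, so these 2 counts are not separate. The 1 H3 window, that of H3C4, is the same window as that of H2AC7, since RefSeq gives both genes the same start. The H1 box, AAACACA, was in all 6 H1 windows and in 9 of the 64 (14.1%, against 5.76%). The families thus differed in these letters, while the members past 1.5-fold had no motif in common. H1-3 held TATAAA with CCAAT and the H1 box, H3C6 held TATAAA with CCAAT, H4C4 and H4C2 held TATAAA alone, and H2AC25 and H2BC26 held CCAAT alone. A match is a description of these windows and not a measured binding site.

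The summed level of the clustered histone genes was nearly the same in both libraries, at 1660.05 TPM with DMSO and 1655.50 TPM with CCA-1.1. The log2 difference of this sum was −0.004, and the members made up 0.166% of the TPM in each library. Within this sum the parts shifted. The 2 members with the highest mean levels, H1-2 and H2AC18, went together from 663.09 TPM to 510.15 TPM, a difference of −0.38 on the log2 scale. The other 67 members summed to 996.96 TPM with DMSO and 1145.35 TPM with CCA-1.1, a difference of 0.20. H1-2 and H2AC18 held 39.9% of the members' TPM with DMSO and 30.8% with CCA-1.1. The sum is concentrated in few genes, since the 7 members with the highest means held 76.9% of it with DMSO and 70.1% with CCA-1.1.

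**Figure D1:**
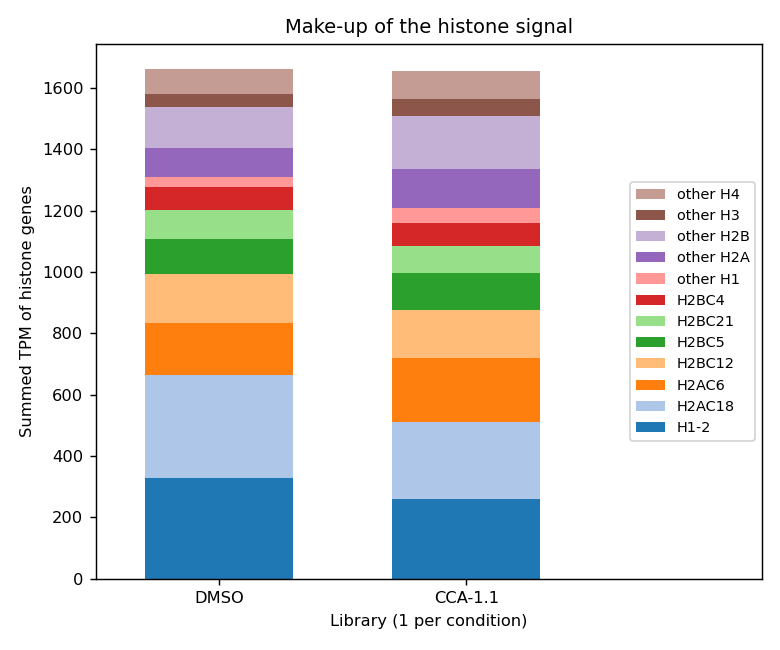
Stacked bars give the summed TPM (vertical axis) of the clustered histone genes in the DMSO and the CCA-1.1 library, 1 library per condition, with the 7 members of highest mean drawn singly and the rest by family. The bars reach 1660.05 and 1655.50 TPM, and the segments of H1-2 and H2AC18 are smaller in the CCA-1.1 bar.

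Gene by gene, more members were higher than lower in the CCA-1.1 library. Of the 69 members, 38 were higher, 22 were lower and 9 were listed at 0 in both libraries. The median difference over all 69 was 0.12, beside 0 over all protein-coding genes, of which 47.2% were higher. Among the 47 members that averaged 1 TPM or more, 31 (66.0%) were higher and 16 lower, with a median of 0.20, beside 53.8% higher and a median of 0.02 over the 12041 protein-coding genes at that level. Among the 20 members that averaged 10 TPM or more, 15 were higher and 5 lower, with a median of 0.24, beside 51.1% higher and a median of 0.0039 over 7906 genes.

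By the fold change criterion of 2-fold, 1 of 69 members was higher in the CCA-1.1 library (H4C4) and 0 were lower. The same criterion took in 0.115% of all protein-coding genes as higher and 0.14% as lower. By a less strict limit of 1.5-fold, a log2 difference of 0.585, 6 members (8.7%) were higher and 0 were lower, beside 0.712% and 0.552% of all protein-coding genes. This one-sided count rests on the pseudocount of 1 TPM, as 14 were higher and 9 lower with 0.1 TPM, and 15 and 10 with 0.01 TPM. The 6 were H1-3, H2AC25, H2BC26, H3C6, H4C4 and H4C2, with at least 1 from each family. At an average of 1 TPM or more, 5 of 47 members (10.6%) were past 1.5-fold as higher and 0 as lower, beside 0.972% and 0.739% of genes at that level. Histone genes are short, and short genes spread more widely between these libraries. Among 35 other protein-coding genes that span at most 1000 bases and reach a mean of 1 TPM, 11.4% were past 1.5-fold as higher and 8.57% as lower. With the pseudocount of 1 TPM, the share of members past 1.5-fold as higher is near that of other short genes. Past it as lower were 0 members and 8.57% of the short genes. The count of members as lower rises with a smaller pseudocount, as given above, and the short genes were not counted there. This contrast is therefore not read as a result about the members. The 5th and 95th percentiles of the difference were −0.96 and 0.93 for these short genes, and −0.31 and 0.36 for all genes that averaged 1 TPM or more. Outside the latter range lay 13 of the 47 members above and 8 below. Of the short genes 28.6% were higher by any amount, with a median of −0.20, against 66.0% of the 47 members.

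**Figure D2:**
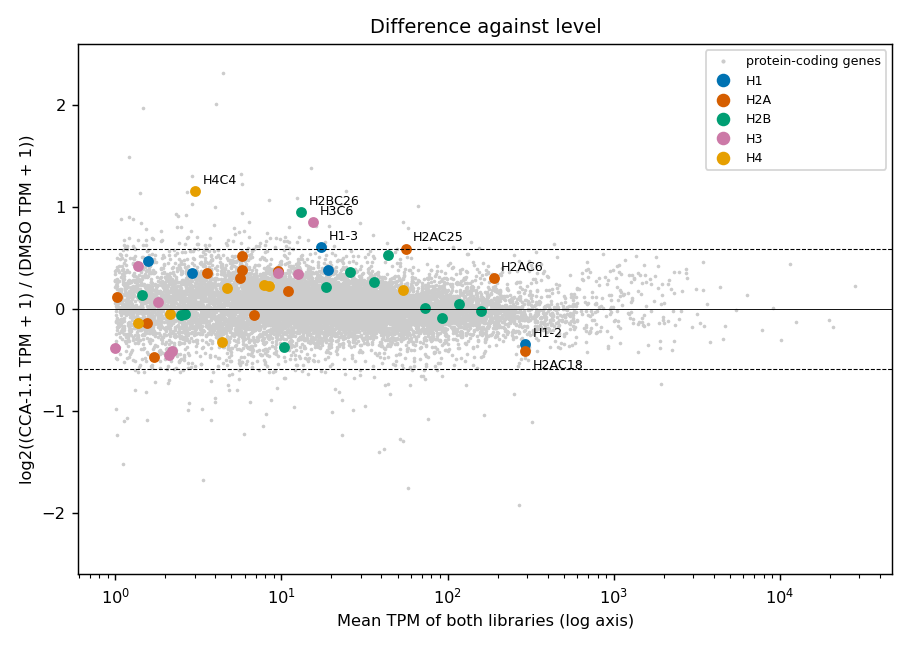
Each point is a protein-coding gene that averaged 1 TPM or more, with the mean TPM of both libraries on a log horizontal axis and log2((CCA-1.1 TPM + 1) / (DMSO TPM + 1)) on the vertical axis; members are coloured by family and dashed lines mark 1.5-fold. H4C4, H2BC26, H3C6, H1-3 and H2AC25 lie above the upper line, and H1-2 and H2AC18 lie at the high end of the levels with differences of −0.35 and −0.41.

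Linker histone genes were lower as a sum and higher one by one. The 6 genes summed to 362.33 TPM with DMSO and 306.83 TPM with CCA-1.1, a difference of −0.24. This difference followed H1-2, a somatic linker histone, which stood at 328.74 TPM with DMSO and 258.46 TPM with CCA-1.1, a difference of −0.35. H1-2 made up 90.7% of H1 TPM with DMSO and 84.2% with CCA-1.1. Without it, the other H1 genes summed to 33.59 TPM and 48.37 TPM, a difference of 0.51. Each of the 4 other H1 genes above 0 was higher in the CCA-1.1 library. H1-3, another somatic subtype, had 13.54 TPM with DMSO and 21.18 TPM with CCA-1.1, a difference of 0.61 that was past 1.5-fold. H1-4 had 16.47 TPM and 21.82 TPM, a difference of 0.39. These levels were far below that of H1-2 in both libraries. H1-5 had 2.43 TPM and 3.39 TPM, a difference of 0.36. H1-6, the linker histone known from testis, had 1.15 TPM and 1.98 TPM, a difference of 0.47. H1-1 was listed at 0 in both libraries. The median over the 5 H1 genes above 0 was 0.39. At most 1.57% of the 31-base words of any H1 gene occurred in another gene.

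The H2A genes gave the largest family sum in the DMSO library, and it differed little between the libraries. It was 597.53 TPM with DMSO and 587.37 TPM with CCA-1.1, a difference of −0.02. H2AC18, the member with the highest level in the DMSO library, had 334.35 TPM there and 251.69 TPM with CCA-1.1, a difference of −0.41. Its share of H2A TPM was 56.0% with DMSO and 42.9% with CCA-1.1. The other 16 H2A genes summed to 263.18 TPM and 335.68 TPM, a difference of 0.35. H2AC19 is a near copy of H2AC18, and all of its 31-base words occur in H2AC18, so the division of reads between them is uncertain. H2AC19 had 4.91 TPM with DMSO and 6.30 TPM with CCA-1.1. The sum of both copies was 339.26 TPM and 257.99 TPM, a difference of −0.39, close to that of H2AC18 alone.

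H2AC6, the second H2A gene by level, had 170.29 TPM with DMSO and 209.94 TPM with CCA-1.1, a difference of 0.30. H2AC25 had 44.52 TPM and 67.65 TPM, a difference of 0.59, just past the limit of 1.5-fold. Once the CCA-1.1 library was scaled by the median ratio of all genes, the difference of H2AC25 was 0.575 and no longer past it. H2AC7 had 4.55 TPM and 6.98 TPM, a difference of 0.52, and shared 84.6% of its 31-base words with other genes. H2AC8 (10.15 and 11.63 TPM), H2AC21 (8.20 and 10.93 TPM), H2AC11 (4.92 and 6.71 TPM), H2AC16 (3.03 and 4.14 TPM) and H2AC17 (0.94 and 1.11 TPM) were also higher in the CCA-1.1 library, by 0.12 to 0.38. H2AC20 (6.94 and 6.65 TPM), H2AC15 (1.68 and 1.44 TPM) and H2AC13 (2.14 and 1.26 TPM) were lower, by 0.05, 0.14 and 0.47 on the log2 scale. Of the 13 H2A genes that averaged 1 TPM or more, 9 were higher and 4 lower, with a median of 0.30.

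The H2B genes at the highest levels differed little between the libraries. The family summed to 579.09 TPM with DMSO and 614.59 TPM with CCA-1.1, a difference of 0.09. H2BC12 had 159.30 TPM and 157.45 TPM, a difference of −0.02. H2BC5 had 114.61 TPM and 118.39 TPM, a difference of 0.05. H2BC21 had 96.18 TPM and 90.15 TPM, a difference of −0.09. H2BC4 had 73.38 TPM and 73.84 TPM, a difference of 0.01 that turned to −0.01 under the scaling by the median ratio. H2BC21 was at −0.11 under that scaling. The H2B genes below these 4 in level were spread more widely.

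H2BC8 had 35.50 TPM with DMSO and 51.65 TPM with CCA-1.1, a difference of 0.53. H2BC26 had 8.69 TPM and 17.69 TPM, a difference of 0.95, the largest of the family and the only one past 1.5-fold. Without a pseudocount its ratio was 2.04, and with a pseudocount of 0.1 TPM its difference was 1.02, past 2-fold. H2BC18 (32.64 and 39.44 TPM), H2BC7 (22.47 and 29.26 TPM), H2BC11 (16.99 and 19.88 TPM) and H2BC6 (1.33 and 1.57 TPM) were also higher, by 0.14 to 0.37. H2BC15 had 11.86 TPM and 8.94 TPM, a difference of −0.37. H2BC17 (2.68 and 2.57 TPM) and H2BC9 (2.55 and 2.42 TPM) were lower by 0.04 and 0.05. The median over 13 H2B genes that averaged 1 TPM or more was 0.05, the lowest among the families.

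The H3 genes were at far lower levels than the H2A and H2B genes. The H3 family summed to 39.54 TPM with DMSO and 53.42 TPM with CCA-1.1, a difference of 0.42, which was the largest family difference. How fully the RNA of each family was captured was not tested, so these levels are not read as shares of histone mRNA. H3C6 had 10.76 TPM and 20.19 TPM, a difference of 0.85. Without H3C6, the family summed to 28.78 TPM and 33.23 TPM, a difference of 0.20. All of the H3C6 signal lay on 1 of its 2 transcripts, and the other was listed at 0 in both libraries. H3C4 had 11.02 TPM and 14.24 TPM, a difference of 0.34, but its transcripts went in opposite directions, with 2.65 and 7.33 TPM for one and 8.37 and 6.91 TPM for the other. H3C4 shared 96.6% of its 31-base words with another annotated gene.

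H3C13 had 8.22 TPM with DMSO and 10.81 TPM with CCA-1.1, a difference of 0.36. The H3 genes at low levels fell on both sides. H3C12 (1.02 and 1.71 TPM) and H3C10 (1.73 and 1.86 TPM) were higher, by 0.42 and 0.07. H3C8 (2.59 and 1.62 TPM), H3C1 (2.64 and 1.73 TPM) and H3C3 (1.26 and 0.74 TPM) were lower, by 0.45, 0.42 and 0.38 on the log2 scale. The median over 8 H3 genes was 0.20, with 5 higher and 3 lower.

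The H4 genes code for nearly the same protein from many loci. H4C15 held most of their summed TPM, but little of it on its curated coding transcript. The family summed to 81.56 TPM with DMSO and 93.29 TPM with CCA-1.1, a difference of 0.19. H4C15 had 50.62 TPM and 57.75 TPM, a difference of 0.19, spread over 9 transcripts. The largest of these was a transcript that RefSeq lists as noncoding, with 23.54 TPM and 24.60 TPM. The curated coding transcript of H4C15 had 7.10 TPM and 8.55 TPM, below the single transcript of H4C8 (7.69 and 9.13 TPM). The rest of the H4C15 values lay on transcripts that RefSeq lists as noncoding or predicted. The coding transcript of the copy H4C14 was given the same 7.10 TPM and 8.55 TPM. The copies cannot be told apart by these values. Both copies together had 57.72 TPM and 66.30 TPM, a difference of 0.20.

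H4C4 had 1.49 TPM with DMSO and 4.56 TPM with CCA-1.1, a difference of 1.16, the largest of all members and the only one past 2-fold with the pseudocount of 1 TPM. It shared 2.15% of its 31-base words with other genes. H4C8 (7.69 and 9.13 TPM) and H4C5 (4.31 and 5.12 TPM) were higher, by 0.22 and 0.20. H4C12 (5.02 and 3.81 TPM), H4C3 (1.48 and 1.26 TPM) and H4C9 (2.19 and 2.08 TPM) were lower, by 0.32, 0.13 and 0.05 on the log2 scale. H4C16, which lies on chromosome 12 away from the other members, had 1.23 TPM and 0.49 TPM. Its difference of −0.58 stopped just short of 1.5-fold with the pseudocount of 1 TPM, and without a pseudocount its ratio was 0.398. H4C2 was listed at 0 with DMSO and had 0.54 TPM with CCA-1.1. Its level was thus below 1 TPM in both libraries, and the size of its difference is set by the pseudocount, since one value is 0.

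**Figure D3:**
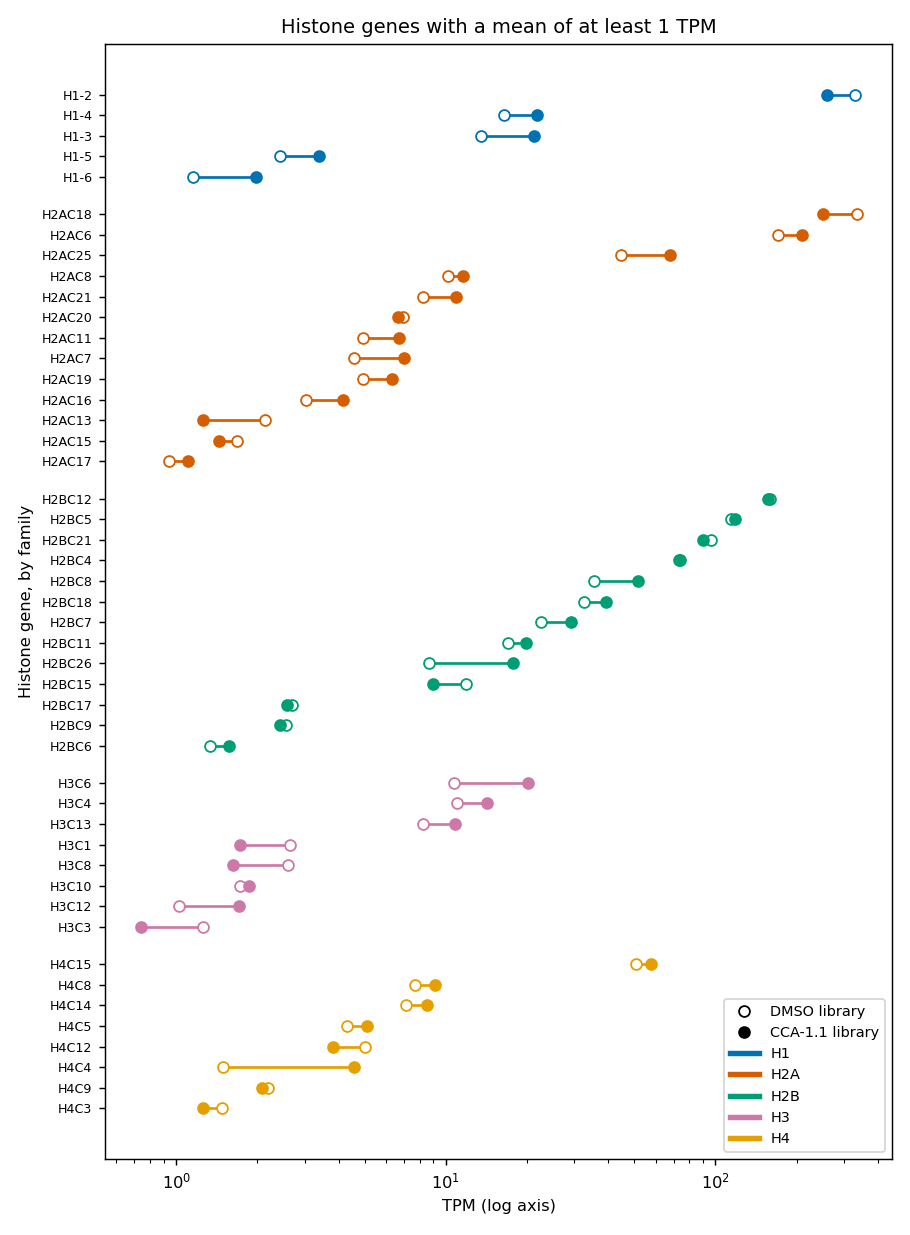
Each row is 1 of the 47 members that averaged 1 TPM or more, ordered by level within its family, with TPM on a log horizontal axis; open circles are the DMSO library, filled circles the CCA-1.1 library, and lines join them. Filled circles lie to the right of open ones in 31 rows, while the top rows of H1 and H2A, H1-2 and H2AC18, run the other way.

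The remaining members were at low values or listed at 0. A value of 0 without counts can be a failed estimate, and ACTN4, a widely expressed gene, was itself listed at 0 with CCA-1.1 and had 1.19 TPM with DMSO. Besides H4C16 and H4C2, 11 members had a mean below 1 TPM without being at 0 in both libraries, and their values ran from 0 to 0.74 TPM. In the DMSO library alone, H4C2, H2BC13, H2BC14 and H3C11 were listed at 0, and in the CCA-1.1 library alone, H4C6, H2BC10, H3C7 and H2BC1. The 9 members listed at 0 in both were H1-1, H2AC1, H2AC14, H3C14, H3C15, H4C1, H4C7, H4C11 and H4C13. Some of these share most of their 31-base words with another gene, such as H3C15 (100%), H3C14 (99.2%), H4C11 (92.5%) and H2AC14 (68.8%). H2AC1 and H2BC1 code for histones known from testis.

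Position was compared because the genes lie in groups, 55 members on chromosome 6, 13 on chromosome 1 and 1 on chromosome 12. The chromosome 6 members summed to 1056.45 TPM with DMSO and 1087.40 TPM with CCA-1.1, a difference of 0.04. The larger group on chromosome 1, which has 11 members including H2AC18, summed to 549.16 TPM and 482.27 TPM, a difference of −0.19. The pair H2AC25 and H2BC26, also on chromosome 1, summed to 53.21 TPM and 85.34 TPM, a difference of 0.67. The differences thus went in both directions on both chromosomes.

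Members whose starts lie within 500 bases of each other on opposite strands formed 12 pairs, 11 of them of 1 H2A and 1 H2B gene. The starts were 194 to 248 bases apart. In 9 pairs both genes averaged 1 TPM or more, and in 8 of these both differed in the same direction, 6 as higher and 2 as lower. H2AC25 and H2BC26, whose starts at 228457873 and 228458103 on chromosome 1 are 230 bases apart, were both past 1.5-fold. H2BC8 and H2AC8 were both higher (0.53 and 0.18), as were H2BC11 and H2AC11 (0.21 and 0.38). H2AC15 and H2BC15 were both lower (−0.14 and −0.37), as were H2BC21 and H2AC20 (−0.09 and −0.05). H2AC17 and H2BC17 differed in sign (0.12 and −0.04). H2BC7 stands in 2 of the 9 pairs, since RefSeq gives H2AC7 and H3C4 the same start, and H2BC4 in another pair changed sign under the scaling by the median ratio. Of all members at this level 66.0% were higher, so the shared signs are not read as a result about the pairs.

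**Figure D4:**
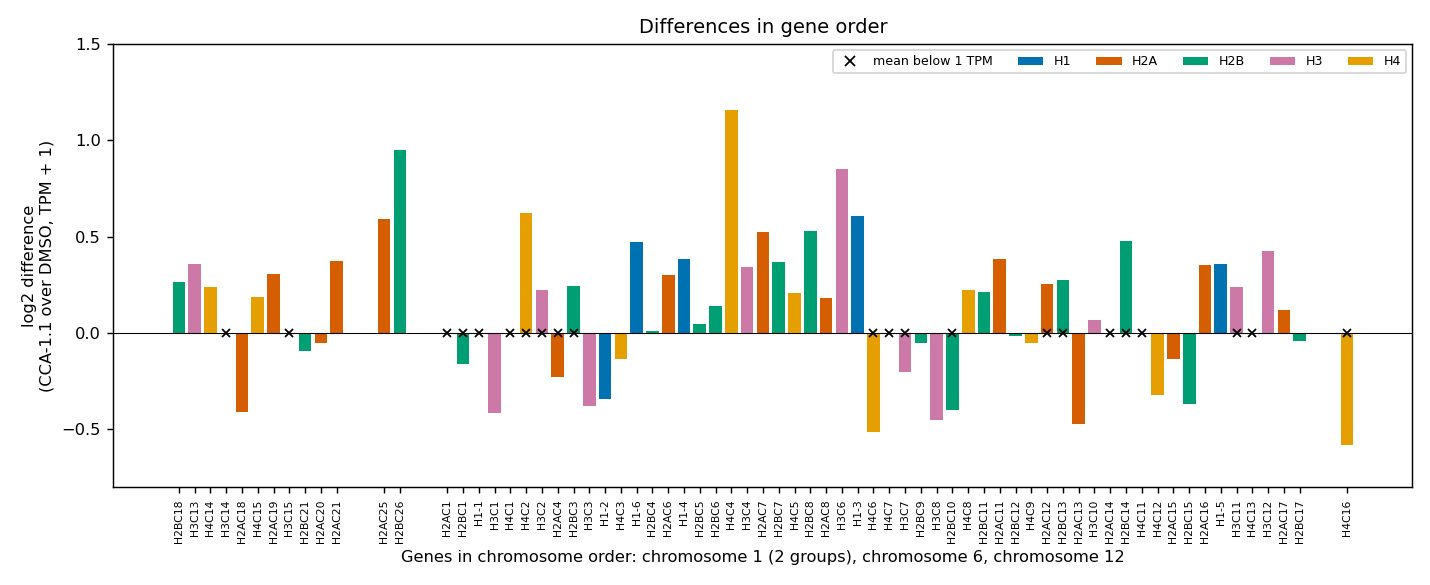
Bars give log2((CCA-1.1 TPM + 1) / (DMSO TPM + 1)) for each of the 69 members in chromosome order, coloured by family, with crosses on those with a mean below 1 TPM. Bars above and below 0 are mixed along chromosome 6, and the tallest bar is H4C4 at 1.16.

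Members that RefSeq or GENCODE gives longer or several transcripts were found at higher levels. In the expression table, 62 members had 1 transcript and 7 had several. All 7 with several reached a mean of 10 TPM, and 13 of the 62 others did. In GENCODE, 19 members had a transcript that ran at least 100 bases past the stem-loop or lacked it, and 47 had none. This grouping does not match the quantified RefSeq transcripts, since H2BC12 and H3C4 have several RefSeq transcripts and are among the 47. Most of the 19, in turn, have only 1 RefSeq transcript. Among these are H2AC6, H2AC25, H2BC11 and H2BC26, whose genes span 519, 510, 480 and 456 bases in RefSeq. For these genes no longer form was quantified, so their levels are not levels of longer transcripts. The 19 had a median level of 15.5 TPM, with 12 at 10 TPM or more, and the 47 had a median level of 1.56 TPM, with 6 at 10 TPM or more. H1-2, at a mean of 293.60 TPM, was among those with no such transcript, and H2AC18, at 293.02 TPM, was among those with one. The H2AC18 transcript has 974 bases in GENCODE, whereas the gene spans 533 bases in RefSeq. At an average of 1 TPM or more, 14 of 17 members with a longer transcript were higher in the CCA-1.1 library, with a median of 0.21, as were 15 of 28 without one, with a median of 0.15. The library kit was one for mRNA and the study's methods name an mRNA enrichment. Whether the reads came from stem-loop mRNAs or from polyadenylated forms was not tested, and the part of such forms in the differences was not tested.

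In some genes with several transcripts, the level sat mostly on 1 of them. H2BC12 had 155.05 TPM with DMSO and 154.53 TPM with CCA-1.1 on 1 of 3 transcripts. H2BC5 had 93.51 TPM and 93.32 TPM on 1 of 3, and H2BC18 had 31.58 TPM and 38.06 TPM on 1 of 2. In H2BC4 it was spread, with 39.69 and 40.98 TPM on one transcript and 33.69 and 32.86 TPM on the other.

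Sequence shared with other genes can limit how exactly a gene's value is known. Across the 66 members with a GENCODE entry, the median share of 31-base words that occur in another gene was 12.4%, and 16 members shared at least 50%, among them H2AC18 (54.1%), H2BC12 (71.0%) and H2BC18 (50.1%). These shares are over all GENCODE transcripts of a gene, some of which are longer than the RefSeq transcript that was quantified. The only GENCODE transcript of H2AC18 has 974 bases, whereas the gene spans 533 bases in RefSeq. Its share over the quantified transcript was not computed and can be higher than 54.1%. The search took in every GENCODE gene, on both strands, and not the RefSeq transcripts behind the values. The main partner can be a gene without a name, as for H2BC12, which shared 61.9% of its words with 1 such gene. Over the shortest GENCODE transcript with the stem-loop, the median was 14.1% and 17 members shared at least 50%. On that basis the share was 48.4% for H2BC26, against 11.5% over all its transcripts, so its value is less certain than the lower share shows. On the same basis the share was 7.92% for H2AC25, 2.15% for H4C4, 0.713% for H1-2 and 0% for H1-3. For H3C6 it was 2.88%, and 5.31% over all its transcripts. All of the H3C6 signal lay on 1 of its 2 RefSeq transcripts. Whether the shortest GENCODE transcript of H3C6 matches that one was not checked.

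The histone genes outside the clusters were looked at as a comparison, on a list of 27 replication-independent variants of which 24 were found as non-members. H2AC25 and H2BC26, both past 1.5-fold as higher, also stood on this list under older names and were counted as members. Of the 12 that averaged 1 TPM or more, 6 were higher and 6 lower, with a median difference of 0.0037. H2AZ1, a variant of H2A found at gene starts, had 388.07 TPM with DMSO and 376.02 TPM with CCA-1.1. H3-3B, one of the genes for the replacement histone H3.3, had 199.06 TPM and 211.01 TPM. H1-10, a linker variant, had 150.23 TPM and 191.38 TPM, a difference of 0.35. Past 1.5-fold, 0 were higher and 2 were lower, H2AJ (84.99 and 53.72 TPM, −0.65) and H2BN1 (1.86 and 0.87 TPM, −0.61). The variants found summed to 1190.58 TPM and 1224.16 TPM, so this sum too was close between the libraries.

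The genes that make and process histone mRNA differed little between the libraries. Of 23 listed genes, all that averaged 1 TPM or more, 16 were higher and 7 lower, with a median of 0.07. SLBP had 82.59 TPM with DMSO and 86.56 TPM with CCA-1.1. LSM1, which takes part in the decay of histone mRNA, had 106.52 TPM and 88.67 TPM, and LSM10, a part of the U7 particle that cuts histone mRNA, had 46.04 TPM and 39.17 TPM. Past 1.5-fold there was 1 gene, E2F1, a transcription factor of S-phase genes, which was lower at 11.46 TPM and 5.72 TPM, a difference of −0.89. Among 20 histone chaperones, 10 were higher and 10 lower with a median of −0.01, and 0 were past 1.5-fold in either direction. The chaperones at the highest levels were RBBP7 (135.00 and 141.35 TPM), NAP1L1 (104.61 and 125.49 TPM) and NAP1L4 (93.06 and 94.95 TPM).

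Genes of DNA replication were mostly lower in the library with CCA-1.1, unlike most histone members. Of 22 listed genes that averaged 1 TPM or more, 17 were lower and 5 higher, with a median of −0.15. RRM2, a subunit of ribonucleotide reductase, had 5.50 TPM with DMSO and 2.06 TPM with CCA-1.1, a difference of −1.09 that was past 2-fold. E2F1, also on this list, was the only other gene past 1.5-fold. PCNA, the sliding clamp of the replication fork, had 53.91 TPM and 53.30 TPM, CDK2 had 54.78 TPM and 47.92 TPM, and FEN1 had 45.75 TPM and 41.93 TPM. The share of cells in S phase was not measured, and its part in the histone values was not tested.

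The labelled cell type was checked against its markers. Mesenchymal genes were high in both libraries, with 3216.80 and 3106.33 TPM for VIM and 11240.61 and 9087.74 TPM for FN1. Of the astrocyte markers, GFAP was at 0.41 and 0.57 TPM, S100B was listed at 0 in both libraries, AQP4 was at 0 and 0.02 TPM, ALDH1L1 was at 3.42 and 6.05 TPM, and SLC1A3 was at 42.61 and 28.60 TPM. Of the immune markers, PTPRC and CD3E were at or below 0.09 TPM, whereas CD68 was at 494.21 and 397.09 TPM. The epithelial markers EPCAM, CDH1 and KRT5 were between 0 and 0.18 TPM.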

How the data were processed

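RNA of U87 cells kept for 72 h with DMSO or CCA-1.1 was sequenced by the authors, with 1 library per condition. Kallisto was run by the authors on GRCh38.p14 transcripts, and they deposited TPM with 2 decimals, whose columns sum to 999999.07 and 999999.81. The submitters' processing notes name FastQC 0.11.9 and MultiQC 1.1. TPM keeps no read depth, so no counting interval is given.

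Of 177816 transcripts, 169966 were matched to RefSeq symbols, 169411 of them by version, and TPM was summed per gene. Differences used a pseudocount of 1 TPM, without a filter on low values unless stated. The members and the lists of related genes and markers were chosen with earlier results of these data known. Named were members that averaged 1 TPM or more or were past 1.5-fold, the top member of each family and, per related list, genes past 1.5-fold and the 3 with the highest means; other genes and the members listed at 0 or below 1 TPM were named after their values were seen. H2AW and H2BU1 of the variant list are older names of H2AC25 and H2BC26, H4-16 was not counted there, SLIP1 was read as MIF4GD, and SPT2 was left out because RefSeq gives this name to an unrelated enzyme. Start windows came from RefSeq (GRCh38.p14), and stem-loops and 31-base words from GENCODE transcripts lifted to GRCh37, where no entry was found for H2BC7, H2BC8 and H4C6. Alternatives were pseudocounts of 0.1 and 0.01 TPM, a minimum mean of 1 TPM, scaling by the median ratio over protein-coding genes, and curated transcripts alone. The sum without the top 2 members, the comparison with short genes and the word shares over the shortest transcript were added after the data were seen. The 2-fold rule alone was tested on simulated data, with large planted changes in genes at high levels. The 1.5-fold limit and genes at low levels were not tested there. Python 3.11.15, numpy 2.4.6, pandas 2.3.3 and matplotlib 3.10.9 were used.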

Additional observations from a re-analysis of the deposited data

How the results depend on the processing

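Counts past a fold limit depended on the pseudocount. With 0.1 TPM in place of 1 TPM, 6 members were more than 2-fold higher and 5 lower, and 14 were more than 1.5-fold higher and 9 lower, beside 1.59%, 1.27%, 5.47% and 4.07% of all protein-coding genes. With 0.01 TPM the counts were 7, 5, 15 and 10, beside 5.59%, 4.64%, 9.67% and 7.71%. Both lower pseudocounts gave a median difference of 0.19 over all members in place of 0.12. H1-6, H2AC7 and H3C12 were then past 1.5-fold as higher, and H2AC13, H3C3 and H3C8 as lower. Scaling of the CCA-1.1 library by the median ratio of 1.0125 put 1 member, H4C16, past 1.5-fold as lower. The summed difference of −0.004 was 0.20 without H1-2 and H2AC18, an alternative added after seeing the data. The other 46 values for counts, medians and sums kept their direction or, for counts, stayed within 1.5 times. No paired analysis was possible because each condition had a single library, and none could be left out. The read depth is unknown, so values below 1 TPM and genes listed at 0 cannot be set against counting error.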

Other observations

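Of the histone loci that RefSeq lists as pseudogenes or antisense RNA, 4 had transcripts in the table. H2BC20P had 3.03 TPM with DMSO and 5.09 TPM with CCA-1.1, and differed by 0.60 in log2(TPM + 1). H1-10-AS1 had 0.95 and 0.67 TPM, H1-9P was listed at 0 and had 0.15 TPM, and H2AC2P had 0.03 TPM and was listed at 0.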
